A study of Mus musculus with 5 samples.

Results

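At 1438 of the 6578 Hoxa9 peaks mapped in mouse bone marrow progenitors, the called peak overlapped a C/EBPα peak while the called summits lay apart. These sites were chosen by measured positions: the Hoxa9 peak shared at least 1 bp with a C/EBPα peak, its summit lay over 100 bp from every C/EBPα summit, and it touched no H3K27me3 region. They are called separated sites here. The comparison was with the 2265 coincident sites, which met the same conditions except that a C/EBPα summit lay within 100 bp. Separated sites made up 38.8% of the 3703 sites in both classes (95% exact Clopper-Pearson interval 37.3 to 40.4).

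The cells were lineage-depleted bone marrow from C57B6 mice, infected with the retroviruses MIGR1-HA-Hoxa9 and MIGR1-Flag-Meis1 and kept in IL3. Every library came from cells carrying both viruses, so Hoxa9 here is the introduced, HA-tagged protein, precipitated through that tag, and no library without it was used. C/EBPα, H3K4me1 and H3K27me3 were precipitated with antibodies against the protein or mark itself. There was 1 library for each precipitation and 1 input, so replicate error is unknown throughout and no test between conditions was possible. Peaks within a library are not replicates either, and all class comparisons below are descriptions of these lists. The intervals cover counting error only, and neighbouring peaks are not independent.

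Hoxa9 is a homeodomain factor that binds DNA together with partners of the Meis and Pbx families and keeps myeloid progenitors proliferating when it is overexpressed. C/EBPα, a factor of the leucine zipper class, drives granulocyte and monocyte differentiation. At enhancers, transcription factors usually occupy a stretch with few nucleosomes, and nucleosomes on either side carry H3K4me1. H3K27me3 is placed by Polycomb complexes at silenced genes. A ChIP-seq peak is a stretch of DNA with an excess of sequenced fragments, and its summit is the point where they pile highest. The caller reports 1 summit per peak, so a wide peak that holds several binding sites still shows a single one.

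Distances between the summits ran without a break across the 100 bp limit. Of the 3703 sites, 1376 had summits up to 50 bp apart, 889 had over 50 and up to 100 bp, 479 up to 150 bp, 277 up to 200 bp, 157 up to 250 bp and 106 up to 300 bp. Just inside the limit, 14, 20, 9, 19 and 16 sites lay at the distances from 96 to 100 bp, and just outside it, 15, 10, 8, 6 and 13 sites lay at the next 5 distances. Each 50 bp step held fewer sites than the one before, with no second group of sites within 300 bp. These distances set the classes and are given as a description.

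**Figure D1:**
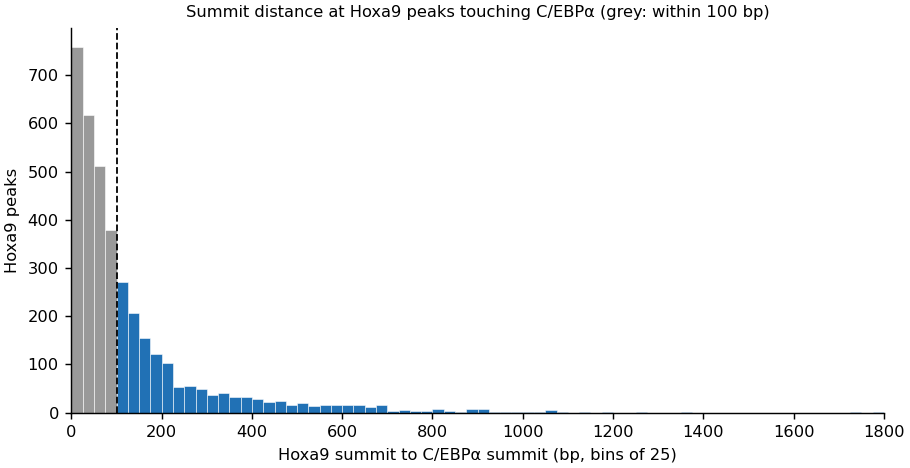
Number of Hoxa9 peaks (y axis) by distance from the Hoxa9 summit to the nearest summit of a touched C/EBPα peak (x axis, bp, bins of 25), with coincident sites in grey, separated sites in blue and the limit of 100 bp as a dashed line. The counts decline smoothly through the limit, from 759 sites in the first bin to 378 in the last grey bin and 272 in the first blue bin.

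Among separated sites the median distance was 192 bp, the middle 50% of sites ran from 136 to 339 bp, and 10% lay beyond 559 bp. Distances of 100 to 200 bp made up 52.6% of them (756 sites), 200 to 400 bp 28.1% (404 sites), 400 to 800 bp 16.1% (232 sites) and over 800 bp 3.20% (46 sites), where each group includes its upper bound and not its lower. More than 50% of separated sites thus lay within 100 bp past the limit. The largest distance was 1778 bp. The C/EBPα summit had the higher chromosome position of the pair at 733 sites, or 51.0% (48.4 to 53.6), an interval that includes an even division.

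The called peaks still overlapped for most of their length. At separated sites they shared a median of 563 bp, or 85.3% of the Hoxa9 peak, compared with 627 bp and 96.1% at coincident sites. Each summit lay inside the other factor's peak at 1048 separated sites, or 72.9% (70.5 to 75.2). At 157 sites only the Hoxa9 summit lay inside the other peak, at 103 only the C/EBPα summit did, and at 130 neither did. The last arrangement, a pair of peaks overlapping at their edges, was found at 3 of 756 sites with summits 100 to 200 bp apart, 18 of 404 at 200 to 400 bp, 91 of 232 at 400 to 800 bp and 18 of 46 beyond 800 bp. Edge-to-edge overlap was thus mostly a feature of distances over 400 bp, as the geometry of peaks of this width requires.

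Peak centres gave a different picture from summits. The centres of both peaks lay within 100 bp of each other at 529 separated sites, or 36.8% (34.3 to 39.3), although their summits did not. At 100 to 200 bp this held for 54.6% of sites, at 200 to 400 bp for 25.7% and at 400 to 800 bp for 3.88%. Within its own peak, the Hoxa9 summit was displaced from the centre by a median of 45.0 bp in the direction away from C/EBPα, and the C/EBPα summit by 32.5 bp away from Hoxa9. At coincident sites these displacements were 8.50 and 6.50 bp. Sites with summits apart were selected on that distance, so a displacement in this direction follows from the choice.

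At the 100 bp limit, separated sites had peaks of nearly the same median width as coincident sites. The median Hoxa9 width was 730.5 bp (95% interval of the median 711 to 747) at separated and 721 bp (711 to 733) at coincident sites. The touched C/EBPα peak with the nearest summit had a median width of 840.5 bp (819 to 860) compared with 813 bp (800 to 825). Both pairs of intervals overlapped. The spread differed more than the middle: the share of sites with summits apart was 42.9% among the 20% of sites with the narrowest Hoxa9 peaks, 33.3% among the middle 20% and 42.1% among the widest. For C/EBPα widths the shares were 41.8%, 34.6% and 45.5% in the same order. Separation was thus more frequent among both narrow and wide peaks than among peaks of middle width. With a limit of 200 bp, or among stronger peaks alone, the median widths of the classes lay farther apart, as given below.

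Beyond 800 bp the peaks were wide, as the distance requires, and the C/EBPα peaks were more enriched than at separated sites as a whole. The 46 sites had a median C/EBPα width of 1553.5 bp, compared with 840.5 bp at all separated sites. Their median C/EBPα fold enrichment was 19.57 (14.91 to 27.11), compared with 10.71. C/EBPα peaks of like width were not compared, so this enrichment cannot be told apart from the width. The median Hoxa9 width was 928 bp, compared with 730.5 bp. Median Hoxa9 fold enrichment was 7.18 (5.95 to 9.02), an interval that includes the 6.43 of all separated sites. At 19 of them the Hoxa9 summit lay inside the C/EBPα peak and the C/EBPα summit outside the Hoxa9 peak, and the reverse was seen at 4. Across all separated sites the distance was almost unrelated to fold enrichment, with Spearman's rho of -0.02 for Hoxa9 and 0.01 for C/EBPα over 1438 sites that come from the same libraries, and it rose weakly with width, with rho of 0.10 for Hoxa9 and 0.15 for C/EBPα.

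Both factors were slightly less enriched at separated sites. The median Hoxa9 fold enrichment, the caller's ratio of tags to local background, was 6.43 (6.32 to 6.51) at separated and 7.02 (6.86 to 7.26) at coincident sites. For C/EBPα it was 10.71 (10.37 to 11.44) and 12.35 (11.85 to 13.1). The intervals did not overlap for either factor, but the distributions did: the middle 50% of Hoxa9 values ran from 5.10 to 9.27 at separated and from 5.49 to 9.86 at coincident sites. The number of tags showed less of a difference. A median of 39 Hoxa9 tags was counted in the peaks of both classes, and 63 and 66 C/EBPα tags. The Hoxa9 p score, the p-value from peak calling on a −log10 scale times 10, had medians of 135 (127 to 143) and 138 (132 to 147). Among peaks enriched at least 10-fold for both factors, median Hoxa9 enrichment took the other order, at 13.645 for separated and 13.57 for coincident sites. With classes set by peak centres, the C/EBPα difference nearly closed, at 11.6 (11.05 to 12.2) and 11.8, and the Hoxa9 medians were 6.59 (6.43 to 6.84) and 6.86.

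Sites with the weakest enrichment had their summits apart most often. The sites were divided into 5 classes of about equal size. In the lowest class by Hoxa9 fold enrichment 47.7% (44.1 to 51.3) were separated, followed by 37.7%, 39.2%, 33.7% and 35.1% in the highest. By C/EBPα fold enrichment the shares were 44.0% in the lowest class and 31.3% (28.0 to 34.8) in the highest. By number of tags in the Hoxa9 peak the share was nearly level, at 40.8%, 38.6%, 37.5%, 37.6% and 39.6% from the fewest to the most. Sites with 17 to 23 Hoxa9 tags and those with 72 or more thus had overlapping intervals (37.4 to 44.3 and 36.0 to 43.2). How precisely a summit is placed at these tag numbers was not tested.

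**Figure D2:**
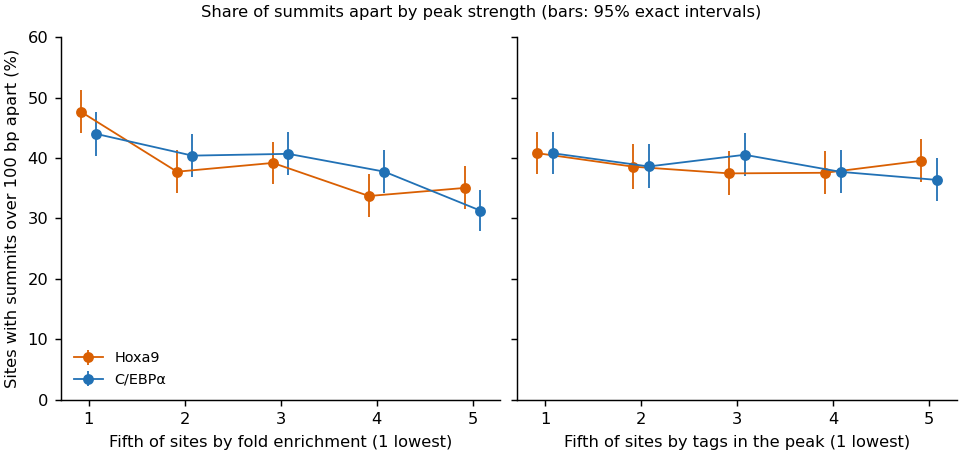
Share of sites with summits over 100 bp apart (y axis, %, from 0) in 5 classes of the 3703 sites by fold enrichment (left) and by tags in the peak (right), for Hoxa9 (orange) and C/EBPα (blue), with bars for 95% exact intervals. The share falls from 47.7% to 35.1% from the lowest to the highest class of Hoxa9 fold enrichment, and stays between 37.5% and 40.8% over the classes of Hoxa9 tags.

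The difference in enrichment was also seen at similar peak width. The sites were divided into 4 classes by Hoxa9 width. In the narrowest, up to 551 bp, the median Hoxa9 fold enrichment was 4.72 at separated and 5.10 at coincident sites. It was 6.25 and 6.43 in the next class, 7.30 and 8.33 in the one after, and 10.9 and 12.2 from 910 bp upward. C/EBPα enrichment at the same sites was lower at separated sites in all 4 classes, with medians of 10.3 to 12.2 compared with 11.4 to 14.8.

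Nearly every site met a single C/EBPα peak. Of the separated sites 25, or 1.74% (1.13 to 2.56), touched 2 C/EBPα peaks and 0 touched 3. Of the coincident sites 33, or 1.46% (1.0 to 2.04), touched 2 or more, and 1 of these touched 3. Over all 6578 Hoxa9 peaks the share was 0.882%, which includes those that touched none. The intervals of the classes overlapped. With peak centres in place of summits the shares moved apart, to 2.78% (2.01 to 3.74) and 0.730%. A Hoxa9 peak that spans 2 C/EBPα peaks tends to have its centre away from both of theirs. Classes set by centres thus tend to count it as separated, and this gap is tied to the measure. Among the upper 50% of both factor lists by p score the shares fell to 0.588% and 0.442%. Hoxa9 peaks reaching across several C/EBPα calls therefore accounted for few of the separated sites.

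Where a separated site did touch 2 C/EBPα peaks, the Hoxa9 summit lay between their summits at 24 of 25 sites. A Hoxa9 peak that touches 2 C/EBPα peaks spans the DNA between them, so this position largely follows from the geometry. The nearer C/EBPα summit was a median of 284 bp away and the farther 697 bp. The 5 named by score among them ran on chromosome 2 from 126497685 to 126499662 (mm9 here and below) and from 155242382 to 155244444, on chromosome 15 from 63800496 to 63801618, on chromosome 5 from 148350841 to 148352222 and on chromosome 3 from 153558156 to 153559161. Their Hoxa9 fold enrichments ran from 10.98 to 22.3. At the first of them the C/EBPα summits lay 452 bp to one side and 1027 bp to the other, with fold enrichments of 4.02 and 6.1, and the Hoxa9 peak had 20.51 in its own list.

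The reverse arrangement, several Hoxa9 peaks on 1 C/EBPα peak, was also found at few sites. The 1438 separated sites involved 1425 different C/EBPα peaks. A C/EBPα peak was shared with another separated site at 26 sites, and at 19 the same C/EBPα peak had its summit within 100 bp of another Hoxa9 summit. These 19 Hoxa9 peaks lay beside a coincident site. At 2 separated sites the nearest C/EBPα summit belonged to a neighbouring peak that the Hoxa9 peak did not touch.

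H3K4me1 was the readout that the choice of sites had not used. It was called over or beside nearly all of them. An H3K4me1 region touched 1338 separated Hoxa9 peaks, or 93.0% (91.6 to 94.3), and 2124 coincident ones, or 93.8% (92.7 to 94.7). Over all 6578 Hoxa9 peaks the share was 82.4%. Both classes stood above that background and within each other's interval, and their order turned under 5 of the alternative settings, with 95.2% and 93.1% when the limit was 200 bp. By distance it was 91.1% at 100 to 200 bp, 93.8% at 200 to 400 bp, 97.4% (94.5 to 99.0) at 400 to 800 bp and 44 of 46 beyond. The widest touched region had a median width of 2535.5 bp at separated and 2392.5 bp at coincident sites, and the highest touched fold enrichment a median of 7.80 and 7.53.

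The summits themselves were covered less often than the peaks were touched. For Hoxa9 the share at the summit cannot be the higher one, since a summit is part of its own peak. The Hoxa9 summit lay inside a region at 1123 separated sites, or 78.1% (75.9 to 80.2), and at 1709 coincident sites, or 75.5% (73.6 to 77.2), compared with 68.6% of all Hoxa9 summits. The C/EBPα summit lay inside one at 1118 separated sites, or 77.7% (75.5 to 79.9), and at 75.6% (73.8 to 77.3) of coincident sites, compared with 62.8% of all 26446 C/EBPα summits. Within separated sites, the shares for the Hoxa9 and the C/EBPα summit lay within each other's intervals. Between the classes the intervals overlapped for each factor. The midpoint between the summits was covered at 76.8% (74.6 to 79.0) of separated and 75.4% (73.6 to 77.2) of coincident sites, and among peaks enriched at least 10-fold for both factors at 70.2% and 73.1%. Regions covered 76.9% of the bases between the summits on average at separated sites and 75.5% at coincident sites.

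Points beyond the summits were covered more often than points between them when the summits lay 200 to 400 bp apart. At these 404 sites the midpoint was covered at 75.7% (71.3 to 79.8), the Hoxa9 summit at 78.0% (73.6 to 81.9) and the C/EBPα summit at 76.7% (72.3 to 80.8). A point as far again on the outer side of Hoxa9 was covered at 85.1% (81.3 to 88.5) and one on the outer side of C/EBPα at 83.9% (80.0 to 87.4). Only the midpoint had an interval below those of both outer points. The values at the summits were nearer to that of the midpoint, but each interval overlapped that of the outer point on its own side. All 5 points come from the same sites, and these intervals do not use that pairing. At 100 to 200 bp the same 5 points gave 78.3%, 75.7%, 75.1%, 76.1% and 78.7% from outside Hoxa9 to outside C/EBPα. At 400 to 800 bp they gave 83.2%, 85.3%, 83.6%, 84.5% and 86.2%, all within each other's intervals, so no dip was detectable in this measure with 232 sites. The outer points lie farther out at larger distances, and the 4 distance groups are best compared in the profile.

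**Figure D3:**
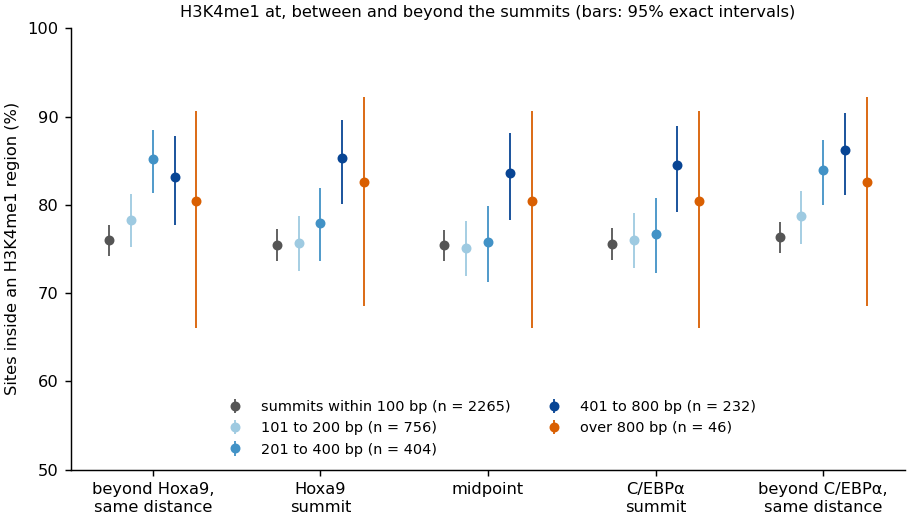
Share of sites inside an H3K4me1 region (y axis, %, axis from 50) at 5 points along the line through both summits, for coincident sites and 4 groups of separated sites, with bars for 95% exact intervals. The 200 to 400 bp group falls from 85.1% outside Hoxa9 to 75.7% at the midpoint and returns to 83.9% outside C/EBPα, while the 400 to 800 bp group stays between 83.2% and 86.2%.

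A profile around the Hoxa9 summit, turned so that C/EBPα always lay to the positive side, showed a low stretch around the summits at distances up to 400 bp. Lows were sought within 500 bp of the Hoxa9 summit. Farther out cover fell again, to 51.4% at coincident sites 1500 bp out on the side away from C/EBPα. Within that window, H3K4me1 cover at coincident sites was lowest at 50 bp, at 75.2%. It was highest 450 bp away from C/EBPα (83.1%) and 400 bp toward it (84.7%), so the highest points on either side lay 850 bp apart. At 100 to 200 bp they were 950 bp apart, with a low of 74.7%. At 200 to 400 bp they were 1100 bp apart, at 86.4% and 86.6%, with a low of 75.5% at 100 bp. At 400 to 800 bp no highest point could be placed: cover was 85.3% both at the Hoxa9 summit and 300 bp away from C/EBPα, and 87.9% at every step from 850 to 1000 bp toward it. The lowest value in the same window, 81.0% (75.4 to 85.9) at 400 bp toward C/EBPα, had an interval that includes the value at the Hoxa9 summit. Positions are in steps of 50 bp, and the highest points of flat curves are only roughly placed. The 46 sites beyond 800 bp were too few for a profile.

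**Figure D4:**
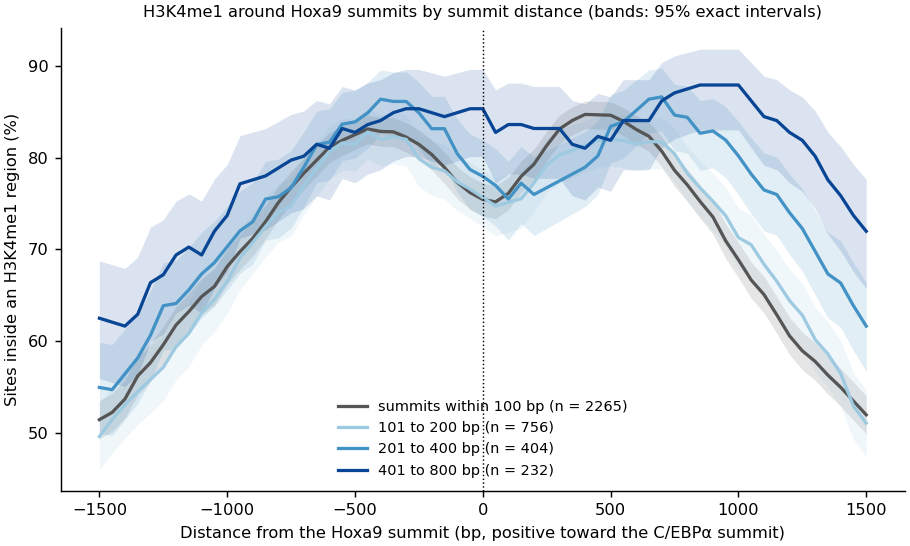
Share of sites inside an H3K4me1 region (y axis, %) by distance from the Hoxa9 summit (x axis, bp, positive toward C/EBPα, steps of 50), for coincident sites and 3 groups of separated sites, with bands for 95% exact intervals. The highest point on the C/EBPα side lies at 400 bp at coincident sites and at 700 bp at sites with summits 200 to 400 bp apart, and the curve for 400 to 800 bp is nearly flat from 300 bp away from C/EBPα to the Hoxa9 summit.

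The profile at separated sites leaned one way near the Hoxa9 summit and the other way farther out. Being centred on Hoxa9, it compares unlike positions: a point toward C/EBPα lies nearer the middle of the pair than its counterpart. At 300 bp from the Hoxa9 summit, 83.5% of separated sites were covered on the side away from C/EBPα and 79.8% on the side toward it. Of these sites 170 were covered on the far side alone and 117 on the C/EBPα side alone. Sites with summits 200 to 400 bp apart accounted for most of the gap. There the point 300 bp toward C/EBPα lay within 100 bp of the C/EBPα summit, itself covered at 76.7%. The far point lay outside the pair. Cover was 86.1% on the far side and 77.5% on the C/EBPα side, with 61 sites covered on the far side alone compared with 26. At 100 to 200 bp the numbers were 81 and 68, and at 400 to 800 bp 24 and 19. Coincident sites had 82.3% and 83.1% at 300 bp, with 211 and 231 sites covered on 1 side alone, but 80.4% and 79.3% at 200 bp, with 240 and 216. At 500 bp both sides of separated sites were covered at 82.3%. Farther out the C/EBPα side was the more covered one, with 75.5% away and 81.7% toward at 800 bp, and 69.2% and 76.8% at 1000 bp. Cover fell with distance on both sides there, so an outer lean comes with the centring. At coincident sites the values at 1000 bp were 68.1% and 68.9%.

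The arrangement of regions around each site was counted next. Both summits lay in a single H3K4me1 region at 930 separated sites, or 64.7% (62.1 to 67.1), and at 73.1% of coincident sites. They lay in different regions, with a break between them, at 90 separated sites, or 6.26% (5.06 to 7.64), and at 9 coincident sites. Only the Hoxa9 summit was covered at 103 separated sites and only the C/EBPα summit at 98, a like number. At 96 separated sites, or 6.68%, neither was covered and regions began within 1000 bp on both sides, so that both factors sat in 1 gap with a median width of 576.5 bp (521 to 696). This was the case at 291 coincident sites, or 12.8%, with a median gap of 430 bp (389 to 464). A longer stretch between summits has more chance of meeting an edge of a region, so these shares are not comparable between classes on their own.

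Taking each Hoxa9 summit alone removed that difference in length. Of the 315 uncovered Hoxa9 summits at separated sites, 173, or 54.9% (49.2 to 60.5), had a region within 1000 bp on both sides, and the gap around them had a median width of 455 bp (379 to 517). Of the 556 at coincident sites, 329, or 59.2% (55.0 to 63.3), did, with a median gap of 395 bp (348 to 434). The intervals overlapped. For uncovered C/EBPα summits the median gaps were 450 bp (367 to 517) and 389 bp (348 to 433).

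The highest scoring separated sites had wide Hoxa9 peaks. All 10 ran from 1430 to 2157 bp in Hoxa9 width, with 216 to 447 Hoxa9 tags and Hoxa9 fold enrichments from 18.18 to 54.65, and their C/EBPα peaks held 26 to 241 tags with fold enrichments from 6.73 to 26.65. Their summits were 112 to 1132 bp apart, with a median of 386.5 bp, and 4 of the 10 exceeded 800 bp, compared with 46 of all 1438. Wide peaks leave room for large distances, so this share is tied to the widths. Over all 1438 sites, distance had a Spearman's rho of -0.02 with Hoxa9 fold enrichment. All 10 touched H3K4me1, which covered the Hoxa9 summit at 9, the C/EBPα summit at 8 and the midpoint at 7.

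The first of them, on chromosome 2 from 172996505 to 172998484, had 447 Hoxa9 tags and 134 C/EBPα tags, with summits 847 bp apart under 1 unbroken H3K4me1 region. The next, on chromosome 13 from 109061288 to 109062717, had a Hoxa9 fold enrichment of 45.8 and summits 155 bp apart. Both held the score of 3100 that 5 Hoxa9 peaks share, and were ordered by fold enrichment. The others lay on chromosome 3 from 141994451 to 141996184 (286 bp apart), chromosome 15 from 76104219 to 76105680 (487 bp), chromosome 5 from 72942715 to 72944169 (112 bp), chromosome 13 from 96481817 to 96483740 (831 bp), chromosome 10 from 96249379 to 96250850 (113 bp), chromosome 12 from 78185663 to 78187665 (118 bp), chromosome 5 from 32153669 to 32155825 (1132 bp) and chromosome 6 from 99284930 to 99286805 (1013 bp).

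Among these 10, the sites on chromosomes 10, 12 and 6 had breaks in H3K4me1 between the summits. On chromosome 10 no base between the summits was covered, and regions lay on both sides of the pair. The C/EBPα peak there had 26 tags and a fold enrichment of 6.73, beside a Hoxa9 fold enrichment of 30.45. On chromosome 12 both summits lay in regions and 33.6% of the bases between them were covered. On chromosome 6 the Hoxa9 summit was covered, the C/EBPα summit was not, and 14.0% of the bases between them were. At the other 7 the mark ran through from summit to summit.

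The most widely spaced sites had Hoxa9 peaks of ordinary enrichment near one end of very wide C/EBPα peaks. The 5 largest distances to the summit of a touched C/EBPα peak ran from 1198 to 1778 bp. Their Hoxa9 peaks were 413 to 978 bp wide with fold enrichments from 5.42 to 7.29, and their C/EBPα peaks were 1893 to 2845 bp wide with fold enrichments from 11.45 to 41.59. The largest, on chromosome 6 from 54906323 to 54907048, had 36 Hoxa9 tags, and the C/EBPα peak it touched held a second Hoxa9 peak whose summit was 1519 bp away, on the side of the C/EBPα summit. The next, on chromosome 16 from 45030822 to 45031488, was alike: its C/EBPα peak of 504 tags held a second Hoxa9 summit 1630 bp away. The other 3 lay on chromosome 3 from 109163221 to 109164194 (1374 bp), chromosome 8 from 69044114 to 69045091 (1251 bp) and chromosome 19 from 53325621 to 53326033 (1198 bp, with 17 Hoxa9 tags, the minimum in the Hoxa9 list). At the chromosome 19 site a C/EBPα peak that was not touched had a nearer summit, 1010 bp away on the other side. H3K4me1 covered both summits and the midpoint at all 5, and every base between the summits at 2. On chromosomes 6, 16 and 19 there were breaks, with 92.2%, 60.3% and 98.1% of those bases covered.

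**Figure D5:**
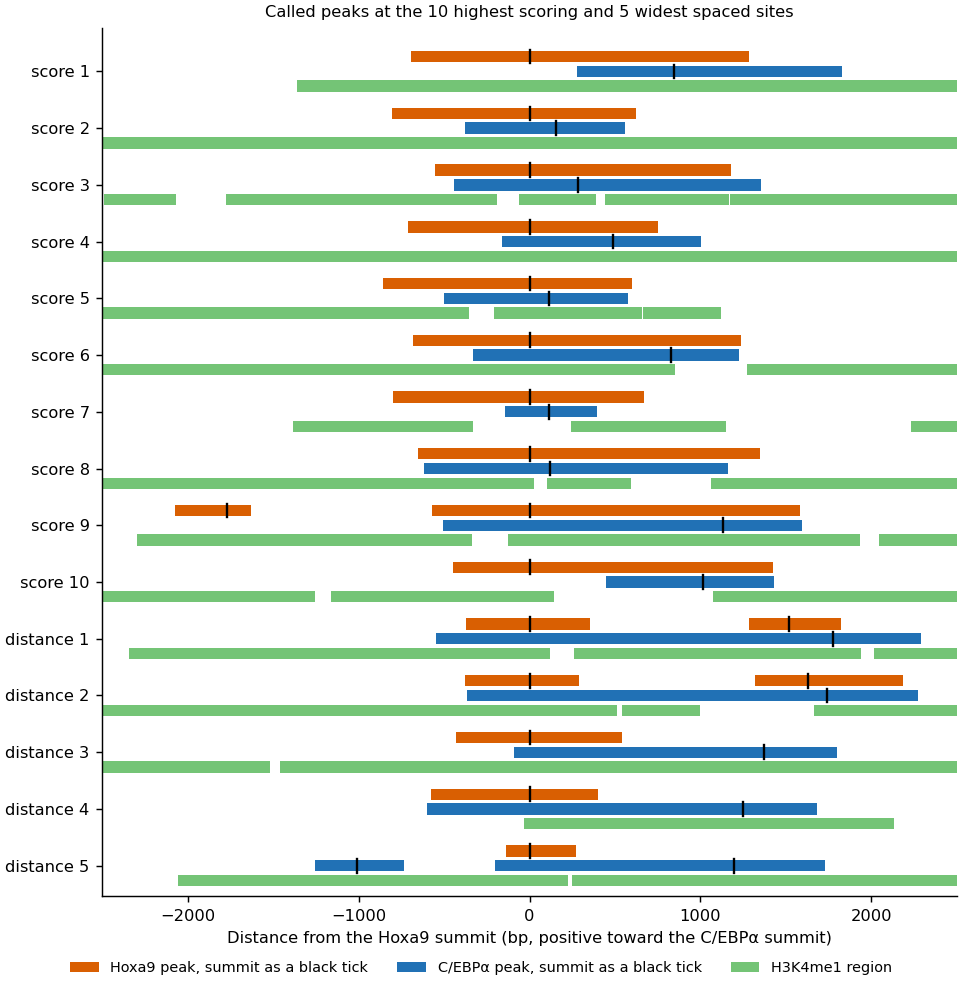
Called peaks drawn to scale at the 10 separated sites with the highest Hoxa9 p score (score 1 to 10) and the 5 with the largest summit distance (distance 1 to 5), with the x axis in bp from the Hoxa9 summit, positive toward C/EBPα, Hoxa9 peaks in orange, C/EBPα peaks in blue with summits as black ticks, and H3K4me1 regions in green. Hoxa9 peaks are 1430 to 2157 bp wide in the first set and 413 to 978 bp wide in the second, where the C/EBPα peaks reach 1893 to 2845 bp.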

How the data were processed

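The tools named in the submitters' processing notes are MACS 1.4, BWA 0.6.2 and CASAVA 1.8.2, and the build is mm9, per the submitters' processing notes. The caller's settings, its control and the library totals were not given in the sources used here. Each of the 4 lists was called by the authors from 1 library, and the input was not analysed here. Per the file headers, the deposited tags are whole-number counts per peak, the score is 10 times −log10 of a p-value, fold enrichment is a linear ratio, and the false discovery rate is in percent. The Hoxa9 list held 285488 tags in 6578 peaks and the C/EBPα list 1408867 in 26446, sums that depend on what was called. The smallest peaks held 17 tags for Hoxa9 and 15 for C/EBPα, so weaker sites are missing.

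Summits were placed at start + offset − 1. Overlap meant at least 1 bp. Where several C/EBPα peaks were touched, the one with the nearest summit was described. Cover at a point meant that a called H3K4me1 region included it, with no signal height. Shares carry exact Clopper-Pearson intervals and medians exact order-statistic intervals, at 95%. Python 3.11.15, pandas 2.3.3 and scipy 1.17.1 were used, and the overlap code was tested on simulated lists.

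Members and groupings were chosen with earlier results of these data known. Regions were named by rule: the 10 highest p scores, the 5 largest distances and the 5 touching most C/EBPα peaks, with ties ordered by fold enrichment or p score. The quantities were fixed as values without tests, since peaks are not replicates. No genome or annotation of mm9 was used, so no gene, motif or sequence is given for a site. Alternatives changed the summit limit, the overlap, the strength of peaks and regions, and the H3K27me3 filter.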

Additional observations from a re-analysis of the deposited data

How the results depend on the processing

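Of 74 alternatives to 10 values, 43 stayed inside the interval of the value (counts: within 1.5 times), 30 moved and 1 reversed. In 60 of the 67 with a direction, separated sites kept their direction against coincident ones. The settings share many of their peaks, so these are not independent repeats. As first computed, the class intervals overlapped for every value except the fold enrichments, so a kept direction says little for the others. The number of separated sites was 2327 with summits over 50 bp apart, 682 over 200 bp, 188 among peaks enriched at least 10-fold in both factor lists and 680 in the upper 50% of both by p score, since each setting moves the limit or keeps fewer peaks. As a share of touching sites these were 62.8%, 18.4%, 32.7% and 37.6%, and for the last pair classes were counted anew among the peaks kept. No replicates could be left out. No paired analysis was possible because each precipitation had 1 library.

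With summits over 50 bp apart, median Hoxa9 fold enrichment was 6.54. Over 200 bp, median Hoxa9 widths were 776.5 bp (734 to 809) at separated and 718 bp at coincident sites. For C/EBPα they were 903 bp (860 to 936) and 811 bp. A larger distance needs wider peaks, so these widths are tied to the limit. Of the separated sites, 95.2% touched H3K4me1 and 80.8% had it at the Hoxa9 summit. Among peaks enriched at least 10-fold the Hoxa9 and C/EBPα widths were 1095 and 1077 bp, compared with 1020 and 1011 bp at coincident sites. Separated sites there had a C/EBPα fold enrichment of 17.5, and H3K4me1 touched 98.4% of them. The mark covered 73.9% of Hoxa9 summits, 73.9% of C/EBPα summits and 70.2% of midpoints. There the median Hoxa9 fold enrichment reversed, at 13.645 at separated and 13.57 at coincident sites. The cause was not tested, but all peaks under 10 are removed. In the upper 50% by score, widths were 896.5 and 972.5 bp, compared with 852 and 917 bp at coincident sites. Separated sites there had fold enrichments of 8.58 and 14.1. Of them, 0.588% touched 2 or more C/EBPα peaks and 97.1% touched H3K4me1. With the upper 50% of H3K4me1 regions, 87.7% touched one, and 74.2%, 74.1% and 72.9% had it at the Hoxa9 summit, the C/EBPα summit and the midpoint.

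By peak centres over 100 bp apart, an alternative chosen after seeing the data, 1511 sites were separated, of which 909 were also separated by summit. They touched 2 or more C/EBPα peaks at 2.78%, with a C/EBPα width of 865 bp and fold enrichments of 6.59 for Hoxa9 and 11.6 for C/EBPα. Coincident sites by this measure had 0.730%, 802 bp, 6.86 and 11.8, so the C/EBPα enrichment gap seen with summits nearly closed. The gap in sites touching 2 or more C/EBPα peaks is tied to the use of centres.

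Against coincident sites, the share touching H3K4me1 was the lower one for separated sites as first computed and the higher one in 5 settings: over 200 bp, 10-fold enrichment, the upper 50% of factor peaks, the upper 50% of H3K4me1 regions, and peak centres. The limit of 50 or 200 bp changes which sites belong, and a lone library gives no measure of how far a summit would move in a repeat. Only called regions were used, so signal too low for the caller is not seen.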

Other observations

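Separated sites were found on all 20 chromosomes that held sites of either class. Their share of touching sites had a median of 39.2% over 20 chromosomes, with an SD of 3.67 points, a lowest value of 30.5% on X (18 of 59 sites) and a highest of 43.6% on chromosome 5 (96 of 220). The 95% exact interval on X, 19.2 to 43.9, includes the median. Chromosome 2, with 98 of 296 sites or 33.1%, is the only one whose interval (27.8 to 38.8) does not.

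Among sites touching H3K27me3, which the rule leaves out, 10 of 39 had summits over 100 bp apart.

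Summits and centres sorted the sites differently. Of the separated sites 529 had centres within 100 bp, and 602 coincident sites had centres farther apart than that. Sites of both classes would therefore change class under the other measure.

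Very dense peaks were rare at touching sites. Peaks of either factor with 0.5 tags per bp or more were found at 5 of 2265 coincident and 0 of 1438 separated sites. With 5 among all 3703 sites, these counts are too small to set the classes apart. The densest reached 1.59 at coincident and 0.336 at separated sites. At 1 coincident site, on chromosome 9, the tag number and the fold enrichment were identical in the Hoxa9 and C/EBPα lists.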
